A study of Homo sapiens with 6 samples.

Results

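The transcript levels of 8 genes of phosphoinositide signalling were examined after depletion of VprBP, the protein encoded by DCAF1. The genes were taken by name from the deposited count table and made up 8 of its 21494 rows. They encode a phosphoinositide 5-phosphatase (INPP5J), a 4-phosphatase (INPP4B), a pair of class I PI3K catalytic subunits (PIK3CA and PIK3CB), a pair of class I regulatory subunits (PIK3R1 and PIK3R3) and a pair of AKT kinases (AKT1 and AKT2). INPP5J is one of the genes that the study itself picked from these samples, so its values and its call are a description and not independent evidence, and no p-value is printed for it.

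RNA-seq was performed on 6 samples labelled with the cell line G361, a human melanoma line, while the labels give LD611 as the source. In 3 samples the cells carried a control shRNA and the labels give the genotype WT (Control sh), and in 3 samples they carried an shRNA against the VprBP coding region and the labels give DCAF1 Knockdown (VprBP sh). Per the study's methods the shRNA was delivered by a lentivirus, a single shRNA sequence was used and infected cells were kept under puromycin, so both groups are selected cell populations. Neither labels nor methods say that the replicates came from separate cultures, and p-values therefore measure the spread between these samples, which may be technical.

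Class I PI3K is a dimer of a catalytic subunit (PIK3CA and PIK3CB encode the alpha and beta forms of p110) and a regulatory subunit that stabilises it and recruits it to phosphorylated receptors and docking proteins. The enzyme makes the membrane lipid PIP3, which recruits AKT, and AKT in turn phosphorylates proteins that control growth, survival and glucose metabolism. The signal is modified by lipid phosphatases: the 5-phosphatases such as INPP5J convert PIP3 into a bisphosphate, and the 4-phosphatases such as INPP4B act on that product.

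Before the results, the samples themselves were checked. Total counts were between 20714424 and 24828307 in Control sh against between 18195926 and 26883925 in VprBP sh, and the mitochondrial share of the counts was 1.96% to 1.98% against 4.10% to 4.48%. DCAF1 had 688, 893 and 884 counts in Control sh against 681, 488 and 628 in VprBP sh. On the normalized scale it fell from 869 ± 90.6 to 583 ± 154 (SD, n = 3 per group), a log2 fold change of -0.58 (SE 0.17, edgeR quasi-likelihood test, adjusted p = 0.0125), which is less than 2-fold and did not pass the test when samples were scaled by library size alone (-0.37, adjusted p = 0.0851). In both groups replicates 2 and 3 lay close together (chi-square per degree of freedom 2.32 and 2.20), whereas pairs with replicate 1 gave 13.8 to 23.1. With those replicates summed into 1 sample the DCAF1 change was -0.46 (adjusted p = 0.0839), and the 4 calls among the members given below held with that sum and with any sample left out. Of 6 melanocyte lineage markers, 3 were measured (MITF, PMEL and MLANA), with a summed level of 195 to 233 normalized counts in Control sh against 244 to 308 in VprBP sh, and MLANA had 1 to 5 counts per sample. Of 7 urothelial and epithelial markers, 6 were measured, with sums of 97984 to 109455 in Control sh against 31010.0 to 33583 in VprBP sh. Among them the counts of UPK1B were 500, 641 and 709 in Control sh and 0 in every VprBP sh sample, while GATA3 had 7, 1 and 0 counts in Control sh against 1580, 1334 and 1873 in VprBP sh. Most of the sums came from KRT5 (64989 ± 7916 to 3488 ± 1354 normalized counts) and KRT7 (35085 ± 1499 to 21576 ± 3497). UPK2 also fell, from 211 ± 8.62 to 43.6 ± 13.6, whereas EPCAM rose from 4464 ± 57.8 to 6080 ± 477. The 2 fibroblast markers measured of 3 listed summed to 670.3 to 716 and 457 to 599.6, and the 1 leukocyte marker measured of 3 (CD68) to 654 to 1049 in Control sh against 1.1 to 5.2 in VprBP sh. TYR, DCT, SOX10, UPK3A, COL3A1, PTPRC and CD3E had no row under these names in the count table, where every row sums to at least 10. The markers measured give the labelled melanocytic identity little support. The summed epithelial level and CD68, the only leukocyte marker measured, were lower in every VprBP sh sample than in every Control sh sample. The epithelial markers did not all move the same way. The part of these marker differences, which go with the knockdown, in the changes described here was not tested.

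All 8 genes passed the filter on low counts. A call required an adjusted p-value below 0.05 together with a change of more than 2-fold. By this rule 4 of the 8 genes were called: INPP5J, PIK3R1 and PIK3R3 were higher and PIK3CA was lower in VprBP sh. Over all 16756 genes tested, 46.4% were called, with 24.5% higher and 22% lower, so 4 of 8 is near the background and is no result about these genes as a group. At an adjusted p-value under 0.05 and any fold, 4 genes were higher and 3 lower, against 76.4% of all genes tested (40.4% higher and 36% lower). The normalized counts of the groups did not overlap for 7 of the 8 genes, the exception being AKT2, and for 79.5% of all genes tested. Counts were normalized by upper quartile factors, and a log2 fold change gives VprBP sh over Control sh. In bulk RNA, fewer cells that express a gene and less of its RNA per cell cannot be told apart.

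**Figure D1:**
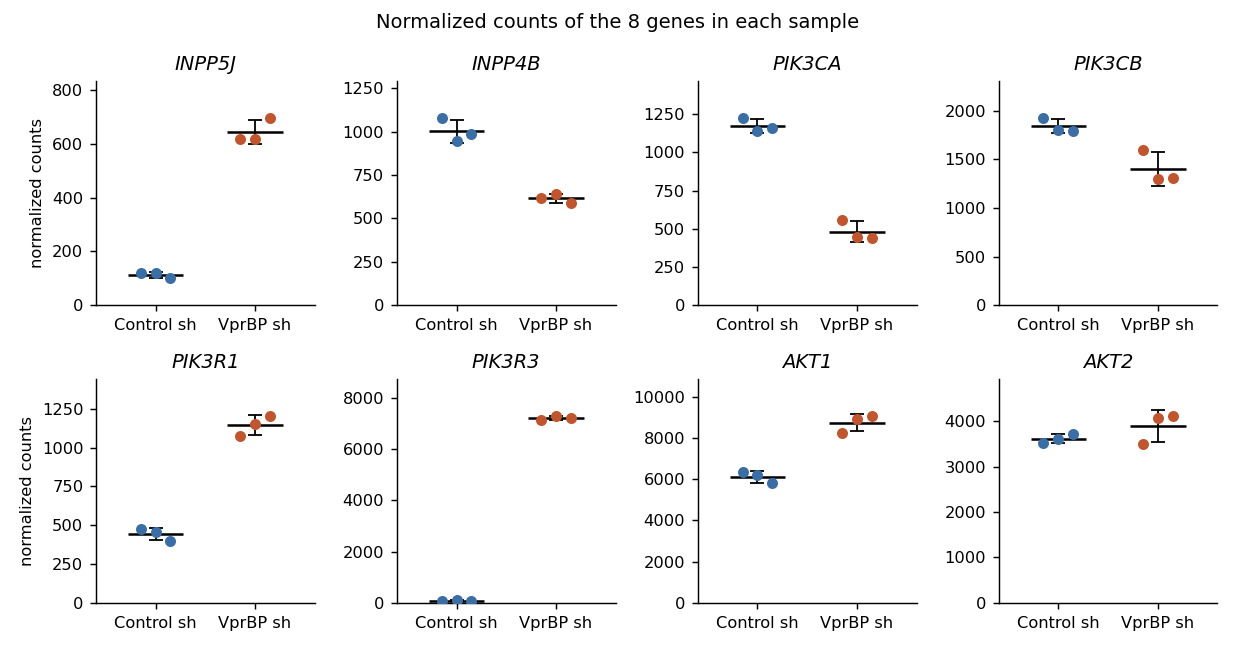
Normalized counts (y axis, from 0) of the 8 genes in each of the 3 Control sh and 3 VprBP sh samples, with the mean as a horizontal line and the SD as an error bar. The groups are apart for 7 genes and overlap for AKT2, and PIK3R3 moves from 81.1 to 7214 normalized counts.

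The catalytic subunits were both lower after VprBP depletion, PIK3CA by more than 2-fold. PIK3CA (ENSG00000121879.6, hg38 chr3:179148114-179240093, plus strand) encodes the alpha catalytic subunit that many tumours carry in mutated form. It had 1055, 1048 and 1221 counts in Control sh against 500, 429 and 572 in VprBP sh, or 1223, 1139 and 1158 against 558, 446 and 438 normalized counts. Every VprBP sh value was below every Control sh value by more than the spread within either group. The mean fell from 1173 ± 43.9 to 481 ± 67.2, a 2.44-fold decrease with a log2 fold change of -1.29 (SE 0.12, edgeR quasi-likelihood test, adjusted p = 5.56e-06). The gene overlaps KCNMB3 on the opposite strand, which had far lower levels (98.6 and 78.1 normalized counts), and the strand setting of the counting is not given in the sources used here.

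PIK3CB (ENSG00000051382.9, chr3:138652698-138834928, minus strand) encodes the beta catalytic subunit, which can also be engaged by G protein-coupled receptors. Its normalized counts were 1923, 1807 and 1792 in Control sh against 1599, 1297 and 1307 in VprBP sh. The first VprBP sh sample lay closest to the controls, although the groups did not overlap. The mean of 1840.5 ± 71.8 changed to 1401 ± 172, with a log2 fold change of -0.39 (SE 0.10, edgeR quasi-likelihood test, adjusted p = 0.00522). This 1.31-fold decrease did not pass the test when samples were scaled by library size alone (-0.18, adjusted p = 0.132) or with replicates 2 and 3 summed (-0.37, adjusted p = 0.0636).

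The other catalytic subunits are mainly known from leukocytes, and both had lower levels as well. PIK3CD, the delta subunit, fell from 1082 ± 87.9 to 93.8 ± 8.77 normalized counts, a log2 fold change of -3.53 (edgeR quasi-likelihood test, adjusted p = 1.27e-08). PIK3CG, the gamma subunit, had 89, 116 and 110 counts in Control sh and 0 in each VprBP sh sample, and was at least 38.0-fold lower when 3 counts per library are taken as the floor. CD68, described above as the only leukocyte marker of its list that was measured, was also near 0 in VprBP sh. Its part in these decreases was not tested.

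Of the class IA regulatory subunits, PIK3R3 and PIK3R1 moved in the opposite direction, whereas PIK3R2 did not pass the test. PIK3R3 (ENSG00000117461.15, chr1:46040140-46133036, minus strand) encodes p55 gamma, a short regulatory subunit that lacks the amino-terminal SH3 domain of p85. It had 65, 89 and 75 counts in Control sh against 6388, 7011 and 9425 in VprBP sh. The corresponding normalized counts were 75.3, 96.7 and 71.1 against 7132, 7285 and 7225, so that the VprBP sh samples differed among themselves by far less than they differed from the controls. The gene rose from 81.1 ± 13.7 to 7214 ± 76.9, an 89.1-fold increase with a log2 fold change of 6.48 (SE 0.13, edgeR quasi-likelihood test, adjusted p = 5.68e-10). Among the 16756 genes tested it ranked 11986 by level in Control sh against 377 in VprBP sh, ranked 400 by log2 increase and 34 by p-value, and 7.90% of genes had a larger absolute change. A readthrough gene on the same strand, P3R3URF-PIK3R3, overlaps it and has no row analysed here, so its transcripts cannot be told apart from those of PIK3R3.

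PIK3R1 (ENSG00000145675.15, chr5:68215756-68301821, plus strand) encodes p85 alpha and its shorter forms, the regulatory subunits that restrain and stabilise the catalytic subunits. It had 409, 418 and 421 counts in Control sh against 963, 1107 and 1570 in VprBP sh, which are 474, 454 and 399 against 1075, 1150.3 and 1204 normalized counts. All VprBP sh samples were above all Control sh samples. PIK3R1 rose from 443 ± 38.8 to 1143 ± 64.5, a 2.59-fold increase with a log2 fold change of 1.37 (SE 0.11, edgeR quasi-likelihood test, adjusted p = 1.86e-06). The remaining class IA regulatory subunit, PIK3R2 (p85 beta), had 2387 ± 264 and 2721 ± 463 normalized counts, with a log2 fold change of 0.19 (SE 0.13, edgeR quasi-likelihood test, adjusted p = 0.216) and overlapping groups.

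To show the DNA before a start of each PI3K gene that was called, stretches outside annotated exons were taken from the RefSeq promoter windows (GRCh38.p14, 250 bases before to 50 after a start). Entries were found for 7 of the 8 genes, all but INPP5J. The sequences below are written 5′ to 3′ on the strand of the gene, with matches to the CCAAT box (CCAAT) and the GC box (GGGCGG) on either strand in capitals. The stretch of PIK3R3 is chr1:46133037-46133286 on the minus strand and ends 1 base before the gene as placed in the count table, and RefSeq lists several other starts, one of them further upstream. That of PIK3R1 is chr5:68215506-68215739 on the plus strand and ends 17 bases before the start. That of PIK3CA is chr3:179148220-179148356 on the plus strand and ends 1 base before the RefSeq start, which lies inside the gene as annotated, after exons of other transcripts.
PIK3R3: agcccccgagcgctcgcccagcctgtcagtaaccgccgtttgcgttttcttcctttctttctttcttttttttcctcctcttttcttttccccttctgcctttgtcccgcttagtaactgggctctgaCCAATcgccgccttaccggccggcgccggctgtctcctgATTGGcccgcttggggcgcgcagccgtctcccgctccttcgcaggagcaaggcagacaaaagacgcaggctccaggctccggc
PIK3R1: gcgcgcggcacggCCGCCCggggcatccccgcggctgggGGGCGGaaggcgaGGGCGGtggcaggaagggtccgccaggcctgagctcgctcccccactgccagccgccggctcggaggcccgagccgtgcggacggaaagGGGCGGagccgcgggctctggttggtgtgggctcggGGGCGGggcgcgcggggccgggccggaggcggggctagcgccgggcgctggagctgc
PIK3CA: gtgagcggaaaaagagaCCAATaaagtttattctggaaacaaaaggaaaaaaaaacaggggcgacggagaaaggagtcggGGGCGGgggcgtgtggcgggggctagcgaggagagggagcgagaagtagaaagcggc

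The 250 bases of PIK3R3 held 2 CCAAT matches and 0 GC boxes, whereas the 234 bases of PIK3R1 held 5 GC boxes and 0 CCAAT matches. The 137 bases of PIK3CA held 1 of each, and no matches overlapped. Over the full windows of 300 bases the counts were 3 CCAAT matches for PIK3R3, 5 GC boxes for PIK3R1, and 1 of each together with 1 forkhead match (TGTTTAC) for PIK3CA. Other starts gave other counts: the PIK3R3 window at position 46132629, the start of its canonical GENCODE transcript, held 2 GC boxes and 0 CCAAT matches, and a PIK3R1 window at position 68290664 held 1 CCAAT match and 0 GC boxes. Among 35116 RefSeq windows of that length, 34.6% held a CCAAT match, 44.95% a GC box and 3.42% a TGTTTAC match. The other motifs searched, TATAAA (11.5% of windows), CACGTG (7.26%) and AGATAA (10.3%), were in none of the 3 windows from which the sequences were taken. A match describes the letters only.

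Because a ratio within 1 sample does not depend on how samples are scaled, the balance between paralogs was examined next. The count ratio of PIK3CA to PIK3CB was 0.636, 0.631 and 0.646 in Control sh against 0.349, 0.344 and 0.335 in VprBP sh. The log2 ratio changed from -0.65 ± 0.02 to -1.54 ± 0.03 (SD, n = 3), a difference of -0.90, so that PIK3CA lost ground to PIK3CB in every VprBP sh sample. The ratio of PIK3R1 to PIK3R3 was 6.29, 4.70 and 5.61 in Control sh against 0.151, 0.158 and 0.167 in VprBP sh, and its log2 value changed by -5.12, from 2.46 ± 0.21 to -2.66 ± 0.07. The order of this pair in counts was thus inverted, with PIK3R1 ahead in the controls and PIK3R3 ahead after depletion. For both of these ratios and for AKT1/AKT2, given below, the exact two-sided permutation test gave p = 0.1, the smallest that 3 against 3 samples allow, and 0.1 after Benjamini-Hochberg adjustment over the 4 ratios examined. The remaining ratio, INPP5J/INPP4B, is given as a description.

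Within each family, levels were also compared per kilobase of exon. PIK3CB made up 54.5% ± 0.49 of the class I catalytic transcripts in Control sh against 82.5% ± 0.39 in VprBP sh (SD, n = 3), and PIK3CA 15.9% ± 0.32 and 12.9% ± 0.23. PIK3CD had 26.3% in Control sh against 4.55% in VprBP sh, the largest loss of share in the family. In the class IA regulatory family PIK3R3 went from 2.22% ± 0.52 to 62.2% ± 3.51 and PIK3R2 from 92.3% ± 0.98 to 33.4% ± 3.60. The share of PIK3R1 was 5.44% ± 0.47 and 4.46% ± 0.19, so although its own level rose, it remained a minor part of the family. With the length of the longest transcript in place of the union of exons, this share was 9.39% and 7.68%. Summed per kilobase, the catalytic transcripts went from 430.4 ± 20.02 to 216 ± 26.5 normalized counts per kilobase and the class IA regulatory transcripts from 500.4 ± 51.7 to 1572 ± 103. Their ratio, chosen after the values were seen, was 1.24, 1.10 and 1.15 in Control sh against 5.91, 8.25 and 7.95 in VprBP sh. These are transcript levels, and protein was not measured here.

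**Figure D2:**
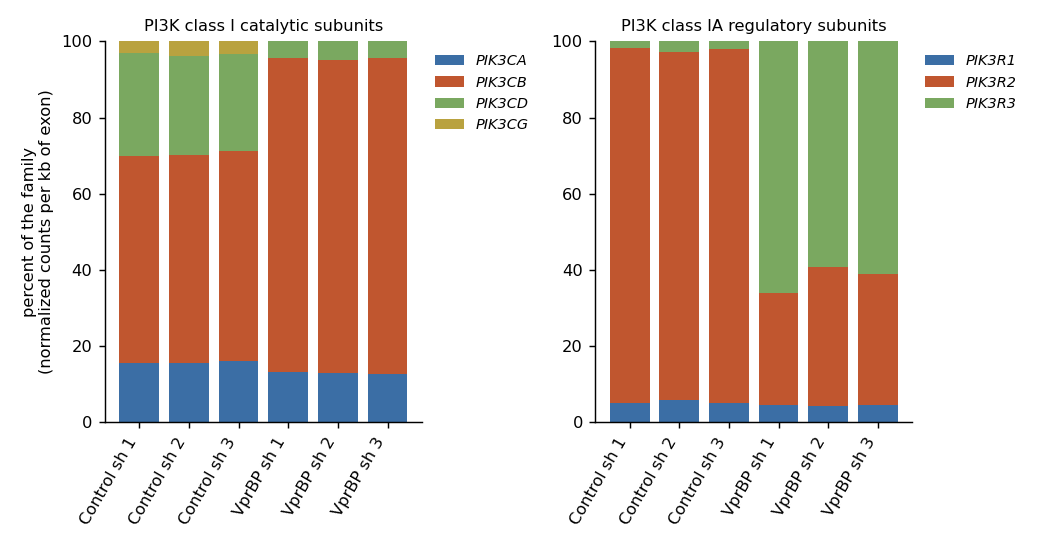
Share of each gene (y axis, percent of the family in normalized counts per kilobase of exon) among class I catalytic subunits and class IA regulatory subunits in each of the 6 samples. PIK3CB takes 54.5% of the catalytic transcripts in Control sh against 82.5% in VprBP sh, and PIK3R3 goes from 2.22% to 62.2% of the regulatory transcripts.

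INPP5J (ENSG00000185133.14, chr22:31122731-31134697, plus strand) encodes a 5-phosphatase, also called PIPP, that removes a phosphate from PIP3 and is known as a restraint on AKT signalling. It overlaps no annotated gene. It had 104, 109 and 106 counts in Control sh against 554, 594 and 906 in VprBP sh, or 121, 118 and 100.5 against 619, 617 and 695 normalized counts. The 3 VprBP sh samples were all above the 3 controls, and the groups were separated by many times their spread. The mean was 113 ± 11.03 in Control sh against 643 ± 44.2 in VprBP sh, a 5.70-fold higher level with a log2 fold change of 2.51 (SE 0.13). By log2 increase it ranked 1399 of all genes tested, and 20.2% of genes had a larger absolute change.

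INPP4B (ENSG00000109452.13, chr4:142023160-142847432, minus strand) encodes a 4-phosphatase of the product that 5-phosphatases make. It had 929, 871 and 1042 counts in Control sh against 555, 618 and 769 in VprBP sh. Scaled to normalized counts these are 1077, 947 and 988 against 619.7, 642 and 589, with no overlap. INPP4B fell from 1004 ± 66.4 to 617 ± 26.4, a 1.63-fold decrease with a log2 fold change of -0.70 (SE 0.10, edgeR quasi-likelihood test, adjusted p = 0.000103), which was under the 2-fold limit of a call. Its paralog INPP4A was at 896 ± 27.5 against 745 ± 62.1 normalized counts, a log2 fold change of -0.27 (SE 0.10, edgeR quasi-likelihood test, adjusted p = 0.0324) that did not pass the test with samples scaled by library size alone (-0.05, adjusted p = 0.631). Per kilobase INPP4B held 51.0% ± 1.61 of the transcripts of the pair in Control sh against 43.6% ± 3.10 in VprBP sh.

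The phosphatases INPP5J and INPP4B thus changed in opposite directions in the same samples. The count ratio of INPP5J to INPP4B was 0.112, 0.125 and 0.102 in Control sh against 0.998, 0.961 and 1.18 in VprBP sh, a log2 difference of 3.21 between -3.15 ± 0.15 and 0.06 ± 0.16. In counts, INPP5J was far below INPP4B in the controls and about level with it after depletion.

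Among the 10 measured 5-phosphatase genes, INPP5J was one of 3 called higher, and 2 were called lower, a share near the 46.4% called of all genes tested. SYNJ1, which acts on phosphoinositides at synaptic and endocytic membranes, rose from 145 ± 19.5 to 1026 ± 96.0 normalized counts (log2 fold change 2.83), and OCRL, the gene of Lowe syndrome, from 1219 ± 53.8 to 2684 ± 101 (1.14). SYNJ2, the paralog of SYNJ1, fell from 1487 ± 30.5 to 472 ± 60.4 (-1.65). INPP5D, which encodes the leukocyte phosphatase SHIP1, had 25, 18 and 14 counts in Control sh against 1, 0 and 0 in VprBP sh, a ratio of 63.5 with a 95% exact counting interval of 10.95 to 2553. INPPL1, which encodes SHIP2, was the most abundant gene of the list and rose from 3562 ± 62.3 to 5468 ± 469 (0.62), under 2-fold. The log2 fold changes of INPP5K (0.92), INPP5B (0.65) and INPP5A (0.42) passed the test below 2-fold, and that of INPP5E (-0.14, edgeR quasi-likelihood test, adjusted p = 0.280) did not pass it. The median over the 10 genes was 0.64, beside 0.08 for all genes tested. Per kilobase INPP5J made up 1.88% ± 0.17 of the 5-phosphatase transcripts in Control sh against 6.67% ± 0.44 in VprBP sh, so that most 5-phosphatase RNA came from other genes in both groups.

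**Figure D3:**
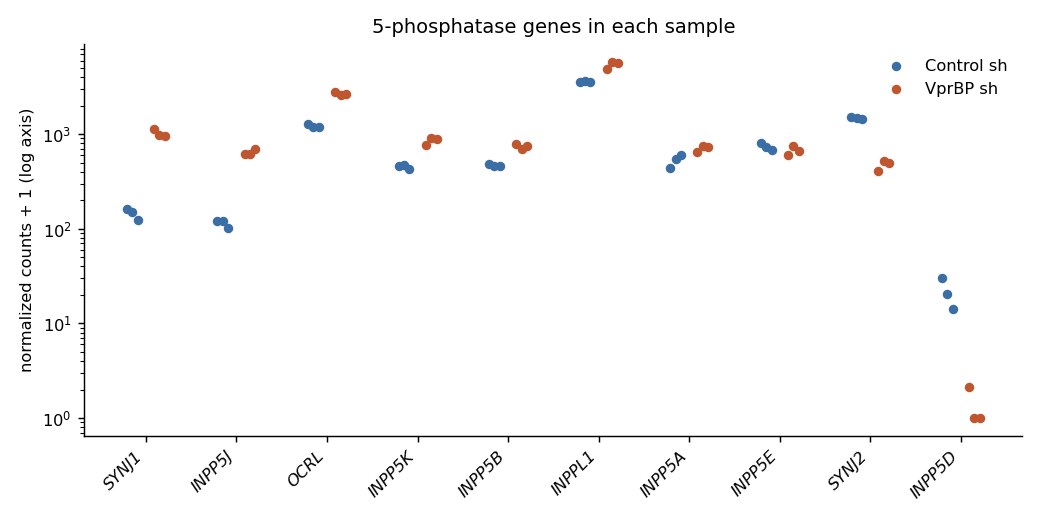
Normalized counts plus 1 (y axis, log scale) of the 10 genes of the 5-phosphatase list in each sample, ordered by log2 fold change. SYNJ1, INPP5J and OCRL lie higher in VprBP sh by over 2-fold and SYNJ2 and INPP5D lower, while INPPL1 is the most abundant in both groups.

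AKT1 and AKT2 moved by less than 2-fold. AKT1 (ENSG00000142208.18, chr14:104769349-104795751, minus strand) encodes the widely expressed AKT kinase. It had 5493, 5694 and 6104 counts in Control sh against 7392, 8570 and 11808 in VprBP sh, or 6367, 6189.7 and 5787 against 8253, 8905 and 9052 normalized counts. The groups did not overlap, and the mean rose from 6114 ± 297 to 8737 ± 425, a 1.43-fold increase with a log2 fold change of 0.51 (SE 0.08, edgeR quasi-likelihood test, adjusted p = 0.000225). AKT2 (ENSG00000105221.18, chr19:40230317-40285536, minus strand) encodes the form best known from insulin signalling. Its normalized counts were 3526, 3601 and 3720.2 in Control sh against 3498, 4075 and 4113 in VprBP sh. The first VprBP sh sample lay below all controls and the other samples of the group above them, so the groups overlapped. The means were 3616 ± 98.0 and 3895 ± 345, with a log2 fold change of 0.11 (SE 0.09, edgeR quasi-likelihood test, adjusted p = 0.280). Without that first sample AKT2 had a log2 fold change of 0.18 (adjusted p = 0.0212), with library size scaling 0.32 (adjusted p = 0.00686), and with DESeq2 -0.01 (adjusted p = 0.910), so its direction and its side of the 0.05 threshold depended on the processing.

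The count ratio of AKT1 to AKT2 was 1.81, 1.72 and 1.56 in Control sh against 2.36, 2.19 and 2.20 in VprBP sh, a log2 difference of 0.41 between 0.76 ± 0.11 and 1.17 ± 0.06. AKT1 was ahead of AKT2 in every sample, and further ahead after depletion.

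**Figure D4:**
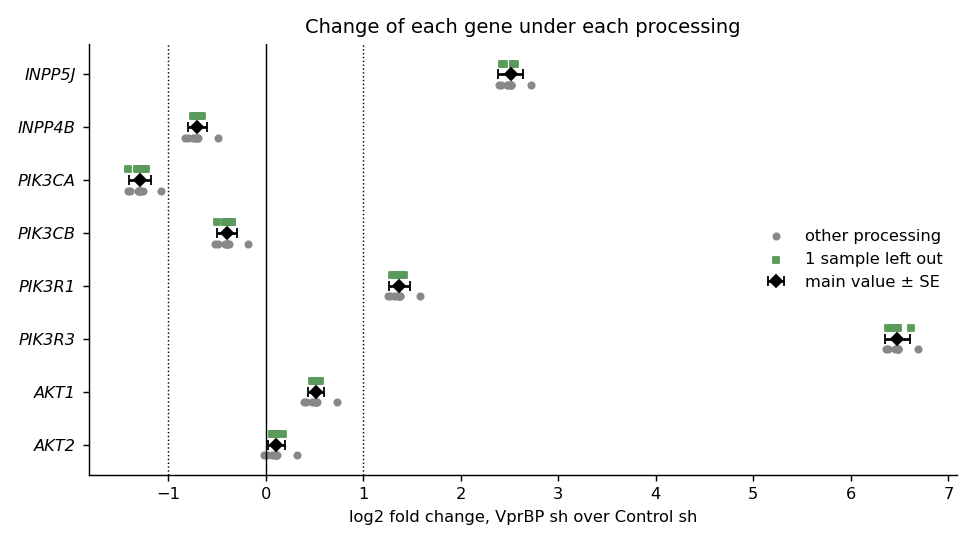
Log2 fold change (x axis, VprBP sh over Control sh) of each gene in the edgeR fit (diamond, with its SE), with each sample left out in turn (squares) and under other processing (circles), dotted lines marking 2-fold. INPP5J, PIK3R1 and PIK3R3 stay higher and PIK3CA stays lower by more than 2-fold throughout, and AKT2 lies on both sides of 0.

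Ordered by level per kilobase of exon, the genes changed places between the groups. In Control sh AKT1 was highest with 558 ± 27.1 normalized counts per kilobase, followed by PIK3CB (235 ± 9.15) and AKT2 (227 ± 6.16), INPP4B (68.9 ± 4.56) and PIK3CA (68.3 ± 2.56), PIK3R1 (27.1 ± 2.38) and INPP5J (23.5 ± 2.29), and PIK3R3 (10.96 ± 1.86). Within each of those 3 adjoining pairs the levels by the union of exons differed by less than the sum of their SDs. In VprBP sh PIK3R3 was highest with 975 ± 10.4, ahead of AKT1 (797.5 ± 38.8), AKT2 (245 ± 21.7), PIK3CB (179 ± 21.9), INPP5J (133 ± 9.17), PIK3R1 (70.0 ± 3.95), INPP4B (42.4 ± 1.81) and PIK3CA (27.97 ± 3.91), and no adjoining pair was that close. By the union of exons PIK3R3 thus went from the lowest level of the 8 genes to the highest, and PIK3CA from the fifth place to the last. The order depends on the length used. With the longest transcript, AKT2 (689) was well above PIK3CB (294) in Control sh, and PIK3CA (127) was above INPP4B (114). The union of AKT1 is 10955 bases against 2957 in its canonical transcript, and that of PIK3R3 7397 against 5596. The order of AKT1 and PIK3R3 by canonical transcript was not examined.

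The 8 genes were then set beside the wider pathway, using 12 lists with 93 genes, which include the members and were written with earlier results of these data known. Of these 90 were in the table, 89 were tested, 15 were called higher and 17 lower, which is 36.0% against 46.4% of all genes tested. The median log2 fold change over the lists was 0.14, beside 0.08 for all genes. Apart from the 8 members, 12 of 81 genes were called higher and 16 lower. The counts per list below stand beside 24.5% called higher and 22% lower of all genes tested. No list was tested as a set. PIK3R5, PIK3R6 and MTMR8 were not analysed here.

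Upstream of PI3K, 3 of the 6 receptors and docking proteins were called higher and 2 lower, beside 24.5% and 22% of all genes tested. The docking protein genes GAB2 (162 ± 11.5 to 1736 ± 119 normalized counts, log2 fold change 3.42) and GAB1 (241 ± 43.3 to 675 ± 8.85, 1.49) rose, whereas IRS1, the docking protein of insulin and IGF receptors, fell from 1679 ± 65.8 to 518 ± 119.8 (-1.69). The receptor gene IGF1R fell from 4428 ± 655 to 971 ± 43.8 (-2.19). Its relative INSR rose from 103 ± 86.1 to 636 ± 152 (2.65), and the first control sample of INSR, with 175 counts against 49 and 57, was well above the other two. Among the non-catalytic partners of class I PI3K, PIK3AP1, the adaptor BCAP of B cells, fell from 121 ± 23.8 to 2.97 ± 1.41 (-5.21). The class II kinase PIK3C2B rose from 714 ± 133 to 2056 ± 40.9 (1.53) and was the only gene called of the 4 class II and III genes tested.

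The counts in the next 3 lists stand beside 46.4% called of all genes tested. Of the 9 phosphoinositide 3-phosphatases tested 1 was called, MTMR7, a low gene that fell from 43.7 ± 12.8 to 12.2 ± 6.17 and that lies outside the rule for named genes. Of the 6 genes of the 4-phosphatase list, which includes INPP4B, 2 were called, both lower: PIP4P2 (443 ± 47.9 to 14.96 ± 4.02, -4.84) and INPP5F (669 ± 49.1 to 234 ± 30.0, -1.52). Of the 11 genes in the list of other phosphoinositide kinases, which act on phosphatidylinositol and its monophosphates, 3 were called higher and 1 lower. PI4KA rose from 1361 ± 49.7 to 4506 ± 104 (1.73), PIKFYVE, an endosomal kinase, from 580.2 ± 35.5 to 1553 ± 142 (1.42), and PI4K2A fell from 1449 ± 112 to 556 ± 43.9 (-1.38). PIP5K1B had 1, 0 and 0 counts in Control sh against 230, 294 and 465 in VprBP sh, a ratio of 887 with a 95% exact counting interval of 159 to 35083.

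Downstream, RICTOR, a defining subunit of the TORC2 complex that phosphorylates AKT, fell from 2608 ± 343 to 798 ± 71.4 normalized counts (log2 fold change -1.71), and PHLPP1, a phosphatase that removes a phosphate from AKT, from 1136 ± 81.3 to 486 ± 39.9 (-1.22). Both were called, whereas the other 5 genes of AKT activation and dephosphorylation were not, beside 46.4% called of all genes tested. Of 16 AKT substrates and TORC1 genes only FOXO1, a transcription factor that AKT keeps out of the nucleus, was called, falling from 3071 ± 5.36 to 444 ± 35.0 (-2.79). Among 8 genes listed as FOXO targets, 3 were called higher and 2 lower, beside 24.5% and 22% of all genes tested. BCL6 rose from 544 ± 195 to 1555 ± 59.8 (1.52), BCL2L11 from 550.2 ± 124 to 1519 ± 25.1 (1.47) and ERBB3 from 1073 ± 33.5 to 2354 ± 271 (1.13). FBXO32 fell from 1891 ± 28.5 to 204 ± 29.9 (-3.21), and TXNIP, which had 3277, 1622 and 1853 counts in Control sh and 0 in every VprBP sh sample, was at least 835-fold lower.

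**Figure D5:**
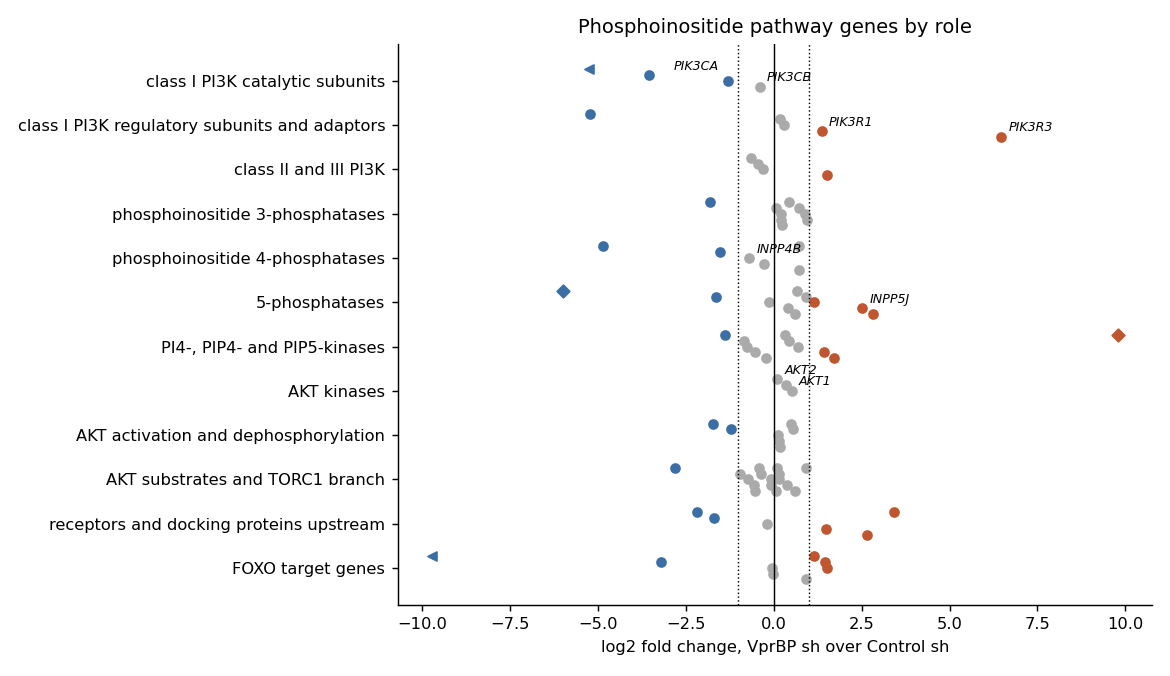
Log2 fold change (x axis, VprBP sh over Control sh) of the 89 pathway genes tested, by role, with the 8 genes of interest named. Called genes are coloured (red higher, blue lower) and others grey, triangles mark lower bounds for genes at 0 counts in VprBP sh, and squares on their corner mark ratios of genes with 1 count in a group. Most of the 12 lists hold points on both sides of 0, and PIK3R3 is the largest increase among genes not near 0 counts in one group.

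The genes whose pattern over the 6 samples was most like that of INPP5J were found by the root mean square difference of centred log2(normalized counts + 1). They were TRIB2 (0.06), SDSL (0.07), SLC2A11 (0.08), the readthrough transcript SUGT1P4-STRA6LP-CCDC180 (0.09) and FZD4 (0.09), and 136 genes lay within 0.2. TRIB2, a pseudokinase, had 580.5 ± 46.4 normalized counts in Control sh against 3444 ± 26.2 in VprBP sh. For INPP4B, the nearest were ENSG00000279491, RALGPS2, VEZF1, TTC39B and SLC6A6 (0.04 each), and 1619 genes lay within 0.2. This measure largely follows the size of the change between the groups, and the genes named for INPP5J had log2 fold changes of 2.40 to 2.57. Changes of the size of that of INPP4B were common in these samples, and those of the size of that of INPP5J less so.

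On the chromosome, 3 of the 8 nearest genes tested around INPP5J were called, beside 46.4% of all genes. SELENOM, the nearest of them before INPP5J and on the opposite strand, fell from 741 ± 106 to 9.63 ± 3.62 normalized counts, in the opposite direction to INPP5J. TUG1 rose from 2705 ± 371 to 5840.3 ± 583 and PATZ1 from 712 ± 45.8 to 1436 ± 78.1. The others, MORC2, SMTN, RNF185, LIMK2 and PIK3IP1, were not called, and PIK3IP1, an inhibitor of PI3K that lies 158.86 kb beyond the start of INPP5J, had 165 ± 20.3 and 202 ± 55.4 normalized counts with overlapping groups. Around INPP4B, 5 of the 8 nearest genes were called, ENSG00000273472, USP38 and the docking protein gene GAB1 higher and RNF150 and IL15 lower. ZNF330, ENSG00000228981 and SMARCA5-AS1 were not called. Between the lower coordinates of the genes, these 8 lay 386.58 to 1490.31 kb from INPP4B. The 8 around INPP5J lay 17.96 to 203.07 kb from it, so those of INPP4B were much less local.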

How the data were processed

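RNA-seq was carried out by the authors on 3 Control sh and 3 VprBP sh samples, and groups and replicate numbers were taken from the sample titles. Single-end reads were aligned to hg38 with STAR and quantified per gene in Partek Flow, and the authors deposited estimated counts per gene and sample, neither normalized nor pooled, of which 59.4% are whole numbers. The labels give LD611 as the source beside the cell line G361 and name a SMARTER kit, whereas the methods name a stranded KAPA kit. Every row sums to at least 10.

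The design had been written for counts, so the estimated counts were rounded to whole numbers before testing. The fit across the whole table was made in R 4.3.3 with the quasi-likelihood test of edgeR 4.0.16, with factors from the upper quartile (0.75), the tool's own filter on low counts (minimum 10), no replicate block and Benjamini-Hochberg adjustment over 16756 genes, in place of Partek Flow's own Gene Specific Algorithm. A call required an adjusted p-value below 0.05 together with a change of more than 2-fold. A floor of 3 counts corresponds to 2.84 to 3.48 normalized counts in Control sh samples, and to 2.30 to 3.35 for VprBP sh. Floors and counting intervals cover counting error only. Exon lengths came from GENCODE 44, in which 93.5% of matched genes have the coordinates of the table (PIK3R1 does not), and promoters from RefSeq (GRCh38.p14). Figures and ratios were made with Python 3.11.15, numpy 2.4.6, pandas 2.3.3 and matplotlib 3.10.9.

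The members and lists were chosen with earlier results of these data known. The named genes are the members, DCAF1, every list gene called whose higher group averaged 100 normalized counts or more, the 5-phosphatases, paralogs of members, list genes at 3 counts or fewer in every sample of 1 group and at least 100 normalized counts in the other, the 5 genes most like INPP5J and INPP4B, and the 4 nearest genes tested on each side of both. MTMR7, the markers and the readthrough and overlapping genes were named outside this rule, after their values were seen. Some listed genes are not reported here. Alternatives were TMM factors, library size alone, DESeq2 1.42.0, limma-voom (limma 3.58.1), other filters, no rounding, a replicate block, replicates 2 and 3 summed, and leaving out each sample. On simulated counts for this comparison with 14437 genes, 200 were changed by 2 on the log2 scale, equally up and down. There edgeR recovered 100% with 0 false calls, DESeq2 99.5% with 0 and limma-voom 100% with 0. The simulation changed a far smaller share of genes than the 46.4% called here, and used the same dispersion for every gene. It checks that the tools ran as intended, and cannot speak for the scaling or the replication of these samples.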

Additional observations from a re-analysis of the deposited data

How the results depend on the processing

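The numbers of members called, 3 higher and 1 lower, held under all 15 alternatives, and the direction of each member except AKT2 held as well. AKT2 turned to -0.013 with DESeq2 (adjusted p = 0.910), passed the test with library size alone (0.32, adjusted p = 0.00686) and without VprBP sh replicate 1 (0.18, adjusted p = 0.0212), and otherwise did not pass it. PIK3CB no longer passed with library size alone (-0.18, adjusted p = 0.132) or with replicates 2 and 3 summed (-0.37, adjusted p = 0.0636), and DCAF1 likewise (-0.37, adjusted p = 0.0851, and -0.46, adjusted p = 0.0839). Over the 15 alternatives the log2 fold changes ran from 2.39 to 2.72 for INPP5J, -0.82 to -0.49 for INPP4B, -1.41 to -1.08 for PIK3CA, -0.52 to -0.18 for PIK3CB, 1.25 to 1.58 for PIK3R1, 6.36 to 6.69 for PIK3R3, 0.39 to 0.73 for AKT1 and -0.82 to -0.37 for DCAF1. Leaving out each sample gave -0.82 to -0.46 for DCAF1. List genes called higher numbered 14 to 20 and lower 12 to 18. Scaling by library size alone moved the all-gene median of the log2 fold change from 0.08 to 0.29, and DESeq2 moved it to -0.04, a shift common to all genes, and the cause of the other changes was not tested. Asking for 10 counts in every sample gave 4690 genes called of 13103 tested, against 7778 of 16756. Both the number and the share called were thus lower. By its definition this filter leaves out genes near 0 counts in 1 group, among them the called genes PIK3CG and INPP5D. How much of the lower share came from such genes was not tested.

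The samples share only replicate numbers: the deviations of same-numbered samples correlated at -0.17, -0.05 and -0.12 over 12133 genes, and no number paired. With a replicate block the members called were again 3 higher and 1 lower and 7686 genes were called in all, AKT2 was at 0.10 (adjusted p = 0.307), and the block changed the call of no member. The 4 paralog ratios kept their direction in all of their 9 alternatives, ranging from -0.91 to -0.88 for PIK3CA/PIK3CB, -5.23 to -5.02 for PIK3R1/PIK3R3, 0.35 to 0.46 for AKT1/AKT2 and 3.12 to 3.29 for INPP5J/INPP4B. With the length of the longest transcript in place of the union of exons, 26 of 28 pairs of members kept their order per kilobase in Control sh and all 28 in VprBP sh. The family shares with that length, an alternative chosen after seeing the data, moved for PIK3CB to 46.2% and 76.4%, PIK3CA to 19.9% and 17.7%, PIK3R1 to 9.39% and 7.68% and INPP4B to 56.1% and 48.7% (Control sh and VprBP sh in turn), with the direction between groups as before. With 3 samples per group, no permutation p under 0.1 can be reached.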
